A study of Mus musculus with 20 samples.

Results

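The genes described here encode the proteins of the cytosolic ribosome in mouse hair follicle stem cells. They were chosen by name, as symbols with Rpl or Rps followed by a number and at most 1 of the letters a, l or x, together with the stalk genes Rplp0, Rplp1 and Rplp2. This rule gives 82 symbols, of which 81 had a probe on the array and 78 had a probe that was well above background on all 20 arrays. The 78 measured genes comprise 44 of the large subunit, 31 of the small subunit and the 3 stalk genes, out of 18727 genes tested. A gene is represented by its brightest such probe. The array carried 1 dye (Cy3), and levels are log2 intensities of that probe after subtracting the log2 of the 75th percentile of the array, so that 0 is the 75th percentile and a step of 1 is a doubling.

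Total RNA came from hair follicle stem cells of male mice. The aged mice were 24 months old. Mice on a high fat diet (HFD) or a normal diet (ND) for 3 months were 5 months old, and mice on HFD or ND for 4 days were 2 months old. Each of these 5 conditions had 1 array from anagen, the growth phase of the hair cycle, and 3 arrays from telogen, its resting phase, giving 5 anagen and 15 telogen arrays. The diet of the aged mice, the mouse strain, how the cells were isolated and whether arrays came from separate mice are not given in the sources used here, so the p-values cover only the variation among these arrays, which may be technical. Mice on ND for 3 months differed in age from mice on ND for 4 days, so that age and feeding period cannot be told apart there.

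The ribosome joins a small subunit, which reads the mRNA, to a large subunit, which forms the peptide bond, and most of its proteins are present in a single copy per ribosome. Most of the mRNAs for these proteins begin with a C and a run of C and T (the 5′ terminal oligopyrimidine, or TOP, tract), through which mTORC1 signalling controls their translation. Hair follicle stem cells rest in telogen with low protein synthesis and enter growth at the start of anagen. Diamond-Blackfan anaemia in humans arises from loss of 1 copy of genes such as RPS19 and RPS24. Arrays measure the mRNA level and not its translation, and in bulk samples fewer cells of a type and less RNA per cell cannot be told apart.

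RefSeq promoter windows on the mouse build GRCm38.p6, of 250 bases before to 50 bases after an annotated start, were matched by symbol for 57 of the 78 genes (68 windows, as some genes have several). A tract of C followed by at least 5 further C or T, beginning within 10 bases of the start on the transcribed strand, was found in 34 of these windows, against 19.2% of all 32851 windows. The 6 starts below are shown because the results turn on these genes or because they are typical TOP starts. Each sequence runs from 40 bases before to 20 bases from the start, 5′ to 3′ on the strand of the gene. Capitals mark the tract from the C nearest the start that meets the definition.
Rps24, chr14:24490638-24490697, plus strand: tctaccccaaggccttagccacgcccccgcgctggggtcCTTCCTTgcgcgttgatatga
Rps21, chr2:180257339-180257398, plus strand: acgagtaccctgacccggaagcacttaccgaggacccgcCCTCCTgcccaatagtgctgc
Rps19, chr7:24884552-24884611, plus strand: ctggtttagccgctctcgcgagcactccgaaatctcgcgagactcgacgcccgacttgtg
Rps6, chr4:86857348-86857407, minus strand: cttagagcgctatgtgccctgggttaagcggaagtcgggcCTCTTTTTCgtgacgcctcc
Rplp2, chr7:141447611-141447670, plus strand: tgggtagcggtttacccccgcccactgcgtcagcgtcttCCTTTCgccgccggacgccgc
Rpl10l, chr12:66284382-66284441, minus strand: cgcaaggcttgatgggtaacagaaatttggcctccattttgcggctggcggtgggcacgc
Counted from that C, the tracts of Rps24, Rps21, Rps6 and Rplp2 are 7, 6, 9 and 6 bases long. In each of them further C or T lies directly before the capitals, so the whole run is longer. No tract of this definition lies in the windows shown for Rps19 and Rpl10l. Other short sequences were searched on both strands of the whole windows. CCGGAAG, a motif of the ETS family, was in 33.8% of the windows of ribosomal protein genes and 8.86% of all windows. AAGATGGC, a motif of YY1, was in 10.3% against 2.75%, and CTTTCC, which can overlap the tract, was in 34 of the 68 against 26.6%. The TATA box TATAAA was in 10.3% against 13.6%. A match describes the letters only.

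All 10 stem cell markers (Cd34, Krt15, Itga6, Lhx2, Sox9, Nfatc1, Lgr5, Tcf7l1, Krt5 and Krt14) were well above background on all 20 arrays. Between 60.7% and 83.49% of spots per array were well above background, 0 were saturated, and the number of arrays limits the precision. The 20 arrays lay on 3 slides, and each anagen array took the first column of its slide while telogen took the others, so that phase and column cannot be told apart. Telogen groups each lay on 1 slide, with both 3 months groups on slide 1, both 4 days groups on slide 2 and the aged group on slide 3. Age and slide therefore cannot be told apart in telogen. On their slides the ND telogen arrays took row 1 and the HFD telogen arrays row 2, so that diet and row cannot be told apart either. The array Aged telogen 3 stood apart from its group, and ND 4 days telogen 1 did so in the opposite direction, as described next.

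Each gene's level was set against its own mean over the 20 arrays, and the median over the 78 genes was taken per array. In telogen this median was -0.25, -0.21 and 0.85 in aged mice, 0.09, -0.08 and -0.08 on HFD for 3 months, 0.26, 0.05 and 0.12 on ND for 3 months, 0.03, 0.04 and 0.02 on HFD for 4 days, and -0.35, 0.35 and 0.28 on ND for 4 days. In anagen it was -0.16 in aged mice, 0.28 on HFD for 3 months, -0.32 on ND for 3 months, -0.38 on HFD for 4 days and -0.42 on ND for 4 days. The array Aged telogen 3 was the highest of all, with 77 of 78 genes above their own mean, and only 3 of 78 were above it on ND 4 days telogen 1. Both subunits moved together, with medians of 0.86 (large) and 0.81 (small) on Aged telogen 3 and of -0.37 and -0.34 on ND 4 days telogen 1.

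**Figure D1:**
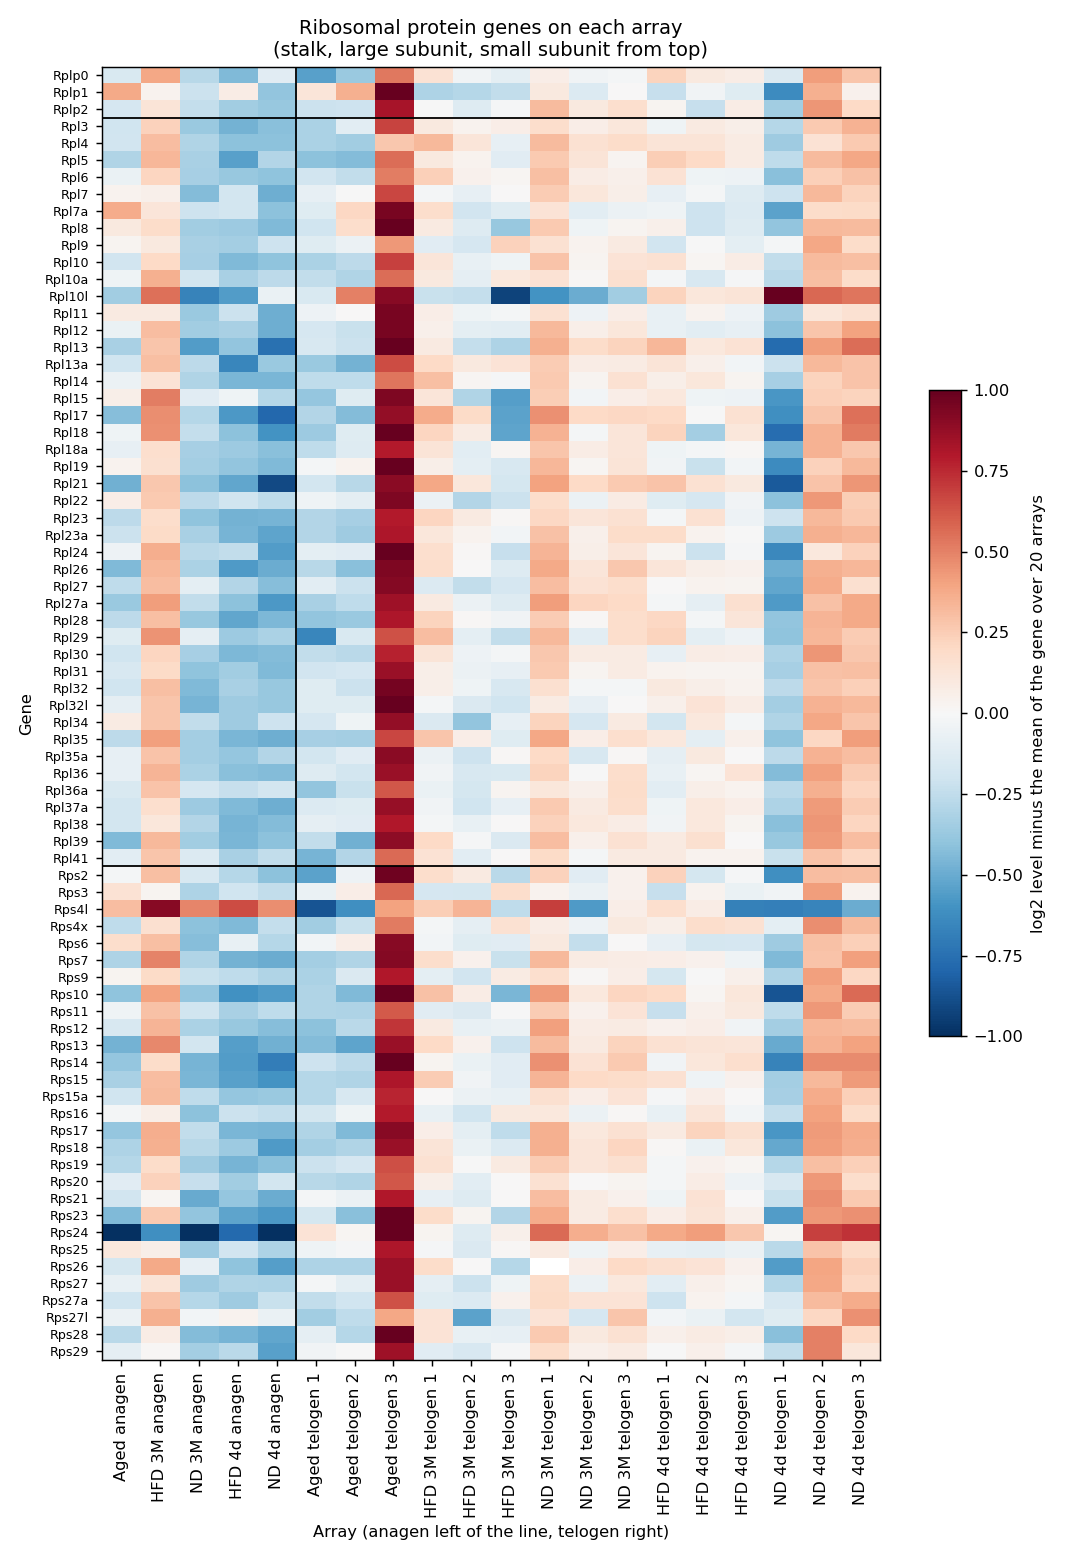
Log2 level of 76 of the 78 ribosomal protein genes (rows) on each of the 20 arrays (columns), minus the mean of the gene over the arrays (colour). Whole columns share a colour, such as the red Aged telogen 3, whose median is 0.85, while Rps24, Rps4l and Rpl10l depart from the other rows.

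These shifts of whole arrays moved with the scaling. The intensity at the 75th percentile, by which an array was divided, was 2609, 2595 and 1185 on the 3 aged telogen arrays and 2009, 1419 and 1482 on the ND 4 days telogen arrays. Before scaling, the median log2 intensity of the 78 genes was 16.88, 16.92 and 16.75 on the aged telogen arrays, so that Aged telogen 3 was the lowest of the 3. The median over all tested genes was also highest on Aged telogen 3 (0.34). After quantile normalization the median of the ribosomal protein genes was 0.24 on Aged telogen 3 and -0.15 on ND 4 days telogen 1, the highest and the lowest of the 20 arrays under that normalization. What part the labelling, the RNA or the cells had in these shifts was not tested.

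**Figure D2:**
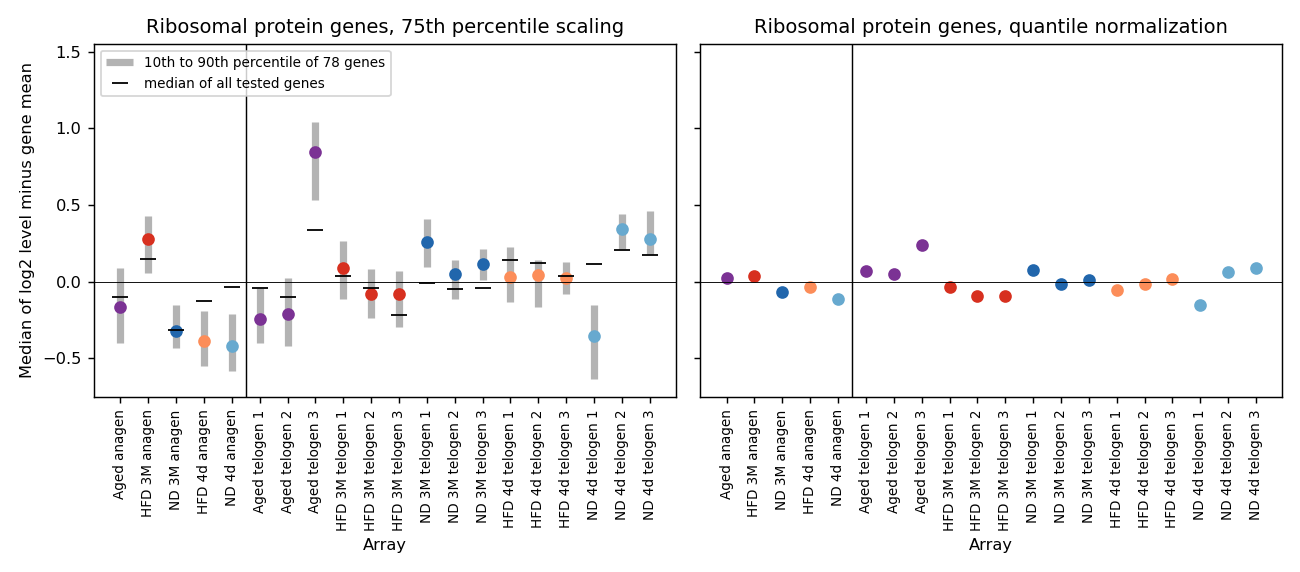
Median over 78 ribosomal protein genes of the log2 level minus the gene's mean, per array (points, coloured by condition), with 75th percentile scaling (left) and quantile normalization (right). Grey bars span the 10th to 90th percentile of the genes and black dashes are the median of all tested genes. Aged telogen 3 is highest in both panels, at 0.85 and 0.24.

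The ribosomal protein genes varied together, and their SDs were smaller than those of all tested genes. The median SD over the 20 arrays was 0.32 for the 78 genes and 0.76 for all tested genes. The 78 genes had to be well above background on all 20 arrays, a requirement that 13126 of the 18727 tested genes could meet. The SDs were not compared at a like requirement. Over the 20 arrays, which share the scaling described above, the median Pearson r of the 3003 pairs was 0.87, and 72 pairs were below 0. It was 0.86 over the 15 telogen arrays and 0.81 over the 19 arrays without Aged telogen 3. After quantile normalization the median r was 0.32, 688 pairs were below 0, and the median SD was 0.15, against 0.73 for all genes. The correlation between pairs was thus lower under that scaling, and the SD of the set was smaller than that of all genes under both.

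With the 75th percentile scaling, a few genes did not follow the rest. The correlation with the median of the other members was above 0.8 for 69 of the 78 genes and among the lowest for Rps4l (0.10), Rpl10l (0.37), Rplp1 (0.64), Rps27l (0.65) and Rps24 (0.71). The median of these correlations was 0.94, and 0.60 after quantile normalization. Under the latter it was -0.06 for Rps4l and 0.38 for Rps24, with lower values for genes such as Rpl4 (-0.23) and Rps4x (-0.10). Which genes departed thus depended on the scaling. Genes with some of the smallest SDs were Rpl9 (0.21), Rps3 (0.22), Rpl10a (0.24) and Rps20 (0.24). Rps24 had the largest SD (0.66), followed by Rpl10l (0.55) and Rps4l (0.55), and that of Rps10 was 0.50. Rps4l is annotated as a transcribed pseudogene on chromosome 6, related to the X-linked Rps4x. Rpl10l, a paralog of the X-linked Rpl10, lies on chromosome 12 and is known for its expression in testis. Its level lay between -3.98 and -1.98, so it passed the requirement for signal while reading below the 75th percentile on every array.

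Genes at the edge of that requirement gave little to compare. Rpl37 was well above background on 13 arrays (3 in anagen and 10 in telogen) and ranged from -7.66 to -2.14. Rpl39l, a paralog of Rpl39 known from testis, passed on 1 array, and Rpl3l, the paralog of Rpl3 known from muscle, on 0 arrays. Rpl6l, annotated as a pseudogene, had no matched probe.

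Among genes outside the set, the 10 whose level over the 20 arrays correlated most with the median of the 78 genes included further ribosomal genes that the naming rule leaves out. Among these were Rpl31-ps12 (r of 0.98), Rpl37rt (0.97), Fau (0.97), Rpl34-ps1 (0.95), Eef1d (0.95), Eif3k (0.94), Rpl36al (0.94), Cox7a2l (0.94) and Rn7s1 (0.94). Fau encodes a ribosomal protein fused to a ubiquitin-like protein, and Eef1d is a subunit of an elongation factor. After quantile normalization the correlation was 0.82 for Rpl31-ps12 and 0.62 for Fau.

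The first comparison asked whether a high fat diet changed the ribosomal protein genes in telogen. After 3 months, 75 of the 78 genes had a fitted difference below 0 (HFD minus ND) and 3 above 0, with a median of -0.16. The differences were small: 53.7% of all tested genes were below 0 there, with a median of -0.04. In limma's test with Benjamini-Hochberg adjustment over 18727 genes, 0 of the 78 genes passed an adjusted p of 0.05, as did 0.0% of all tested genes, and 0 of the 78 were below an unadjusted p of 0.05, against 730 of all genes. The 95% interval of a difference reached 0.68 on either side for the median member. The median was -0.09 with quantile normalization and -0.24 with scaling by the array median. In 20 of the 78 genes all 3 HFD arrays lay below all 3 ND arrays, and 5.7% of all tested genes did so, while 0 of 78 lay above, against 4.15% of all genes. The 20 genes were 10 of the large subunit, 8 of the small subunit and the stalk genes Rplp1 and Rplp2, with differences of -0.43 (Rps24) to -0.16 (Rps15a). Because the members share each array's scaling, these 20 are not independent of each other.

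Rps24, which builds part of the small subunit and is needed for processing of its RNA, had 6.22, 6.07 and 6.25 on HFD for 3 months, against 6.76, 6.57 and 6.50 on ND for 3 months. The groups did not overlap, yet the difference of -0.43 ± 0.31 (SE, n = 3 each) did not pass the test (limma adjusted p = 0.9995), and other probes of the gene gave 0.04 and -0.14. Rpl13, of the large subunit, had 5.81, 5.48 and 5.42 on HFD, against 6.08, 5.90 and 5.94 on ND, a difference of -0.41 ± 0.40 without overlap. The stalk gene Rplp1, which recruits elongation factors to the ribosome, had 4.81, 4.84 and 4.87 on HFD, against 5.21, 4.98 and 5.12 on ND, a difference of -0.27 ± 0.32. Its HFD arrays were the tightest of any telogen group for this gene, at an SD of 0.03. Rps4l had the highest fitted difference, at 0.05 ± 0.41.

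After 4 days of diet, 61 of the 78 genes were below 0 and 17 above 0, with a median of -0.06, against 54.5% of all tested genes below 0 and a median of -0.05. Again 0 of 78 and 0.0% of all tested genes passed limma's adjusted p, with 0 of 78 and 817 of all genes below an unadjusted p of 0.05. The groups did not overlap, with HFD lower, for 2 of 78 genes, Rpl10l among them, and for 5.97% of all tested genes, with 0 of 78 higher against 3.73% of all genes. Rpl10l had -2.83, -2.94 and -2.93 on HFD for 4 days, against -1.98, -2.48 and -2.52 on ND for 4 days, a difference of -0.57 ± 0.31. The median turned on single ND 4 days telogen arrays: it was -0.30 without array 1, with 77 of 78 genes below 0, but 0.06 without array 2, with 59 above 0, and 0.04 without array 3, with 48 above 0. It was 0.02, with 50 above 0, when the 75th percentile was taken over probes well above background on all arrays.

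Averaged over both durations, 75 of 78 genes were below 0, with a median of -0.11, against 54.9% of all genes. That median was -0.23 without ND 4 days telogen 1, -0.05 without array 2 of that group and -0.06 without array 3. None of the 78 passed limma's adjusted p (0 of 78, 0.0% of all tested genes), with 0 of 78 and 802 of all genes below an unadjusted p of 0.05. The difference between the diet effects (3 months minus 4 days) had a median of -0.09, with 59 of 78 genes below 0, against 49.8% of all genes, and 0 of 78 genes and 0.0% of all genes passed. Below an unadjusted p of 0.05 there were 0 of 78 and 701 of all genes. Without ND 4 days telogen 1 that median turned to 0.13, with 71 of 78 genes above 0. For single members, Rpl10l had the largest positive value, 0.59 ± 0.44, and Rpl13 the largest negative one, -0.53 ± 0.56.

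**Figure D3:**
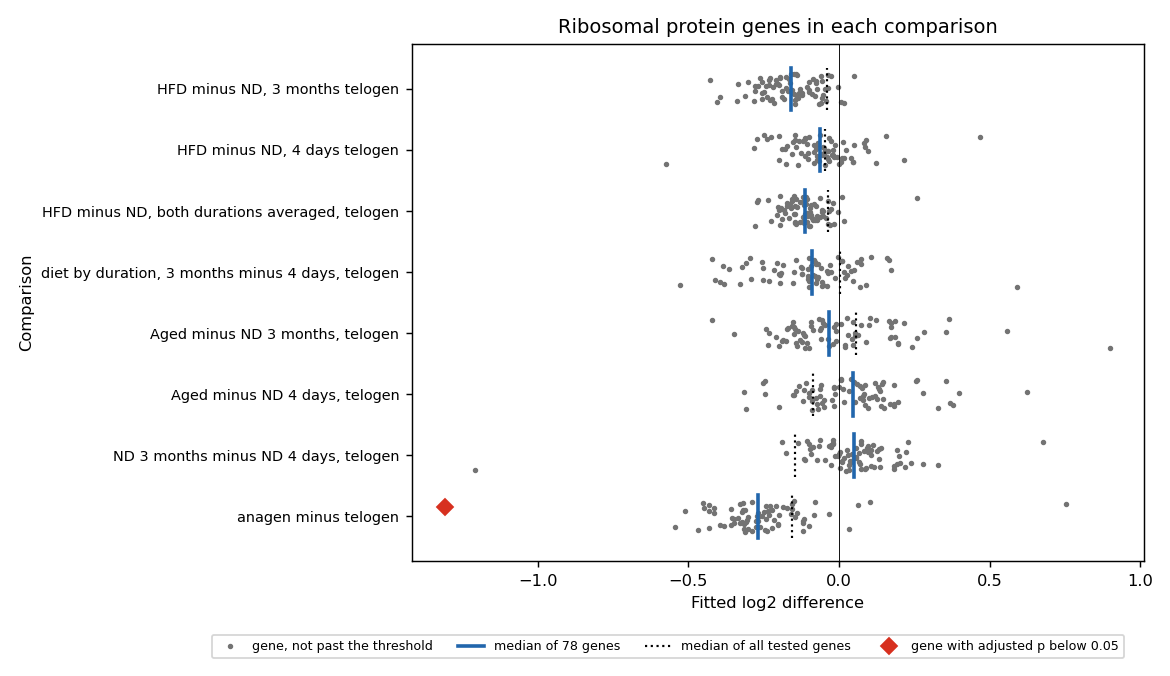
Fitted log2 difference of each of the 78 ribosomal protein genes (points) in 8 comparisons (rows), with the median of the 78 genes (blue bars) and of all tested genes (dotted bars). The red diamond is Rps24 at -1.31 in anagen minus telogen, the only gene of the 78 with an adjusted p below 0.05.

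The next comparison asked how telogen cells of aged mice differed from those of younger mice. Against ND for 3 months, 33 of the 78 genes were above 0 and 45 below 0, with a median of -0.03, against 46.5% of all tested genes below 0 and a median of 0.06. None of the 78 passed limma's adjusted p (0 of 78), against 12 of all tested genes (0.0641%), and 1 of 78, Rpl10l, was below an unadjusted p of 0.05, against 2235 of all genes. Against ND for 4 days, 46 genes were above 0 and 32 below 0, with a median of 0.05, against 56.3% of all genes below 0. There 0 of 78 passed, against 7 of all tested genes (0.0374%), and 0 of 78 and 1471 of all genes were below an unadjusted p of 0.05. Both comparisons use the same aged arrays, which lay on a different slide from either ND group, so that age and slide cannot be told apart. Without Aged telogen 3 the medians became -0.37 against ND for 3 months, with 73 of 78 genes below 0, and -0.31 against ND for 4 days, with 72 of 78 below 0, and still 0 of 78 genes passed in either. Without Aged telogen 1 or 2 the medians were 0.15 and 0.14 against ND for 3 months and 0.22 and 0.21 against ND for 4 days. Without ND 3 months telogen 1 the first median was 0.02, and without ND 4 days telogen 1 the second was -0.22. With quantile normalization the medians were 0.09 and 0.13, and with scaling by the array median -0.30 and -0.09.

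Rpl10l had -3.21, -2.55 and -2.14 in aged mice, against -3.65, -3.55 and -3.40 on ND for 3 months. The groups did not overlap, and the difference of 0.90 ± 0.31 (SE, n = 3 each) had an adjusted p of 0.31 in limma. Rplp1 had 5.24, 5.47 and 6.28 in aged mice, against 5.21, 4.98 and 5.12 on ND for 3 months, a difference of 0.56 ± 0.32 with an adjusted p of 0.51. These were the only genes of the 78 with all aged arrays above all ND 3 months arrays, 2 of 78, while 11.6% of all tested genes had this pattern, and 0 of 78 had all aged arrays below them, against 6.47%. Rplp1 also gave the highest difference of the 78 genes against ND for 4 days, at 0.62 ± 0.32. There the groups overlapped for every one of the 78 genes, while 3.96% of all tested genes were higher and 6.51% lower without overlap.

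Members of other roles did not pass the test either. Rps6, the small subunit protein phosphorylated by the S6 kinases, had 5.58, 5.67 and 6.52 in aged mice, against 5.70, 5.37 and 5.61 on ND for 3 months, a difference of 0.37 ± 0.29. Rpl5, which with Rpl11 forms the 5S RNA particle that can bind Mdm2, had 4.50, 4.47 and 5.47 in aged mice, against 5.17, 5.03 and 4.93 on ND for 3 months, a difference of -0.23 ± 0.30. In both genes Aged telogen 3 lay above the other aged arrays, and for Rpl5 those other arrays lay below all ND arrays.

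Between ND for 3 months and ND for 4 days, that is between mice of 5 and of 2 months, 53 of the 78 genes were above 0 and 25 below 0, with a median of 0.05, against 58.6% of all tested genes below 0 and a median of -0.14. In limma's test 0 of 78 passed, against 3 of all tested genes (0.016%), and 1 of 78 and 2219 of all genes were below an unadjusted p of 0.05. That gene was again Rpl10l, with -3.65, -3.55 and -3.40 on ND for 3 months, against -1.98, -2.48 and -2.52 on ND for 4 days. The groups did not overlap, with a difference of -1.21 ± 0.31 and an adjusted p of 0.25. It was the only member, 1 of 78, with all older arrays lower, a pattern of 19.8% of all tested genes, and 0 of 78 had all of them higher, against 4.41%. Without ND 4 days telogen 1 the median over the 78 genes turned to -0.19, with 75 of 78 below 0. These ND groups also lay on different slides, so that age and slide cannot be told apart.

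The comparison of anagen with telogen joined all 20 arrays, with the condition as a term. Rps24 fell in anagen and was the only ribosomal protein gene past the threshold. As a group, 74 of the 78 genes had a fitted difference below 0 and 4 above 0, with a median of -0.27, against 60.4% of all tested genes below 0 and a median of -0.16. In limma's test 1 of 78 genes was called lower and 0 higher, against 3.31% and 2.81% of all tested genes (6.11% in either direction). A further 5 genes were below an unadjusted p of 0.05, against 4281 of all genes including the called ones, and the 95% interval of the median member reached 0.40 on either side. Without the HFD 3 months anagen array, 37 of 78 were below an unadjusted p of 0.05 with a median of -0.40, and with array weights 34 of 78 were, with a median of -0.33. Calls over all genes rose under these settings too, from 1145 to 2055 without that array and to 1908 with array weights. The size of the group's shift depended on the scaling, while the sign of the median did not: it was -0.03 with quantile normalization, where 48 of 78 genes were below 0, and -0.06 with scaling by the array median, where 54 were. The median of all genes moved with it, to -0.02 and 0.06, and scaling by the array median called 653 of all genes higher and 336 lower.

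Rps24 (chr14:24490678-24496960) had 5.14 in aged mice, 5.59 on HFD for 3 months, 4.79 on ND for 3 months, 5.42 on HFD for 4 days and 5.16 on ND for 4 days in anagen. On the 15 telogen arrays it ranged from 6.07 to 7.29, with a median of 6.50. All anagen arrays lay below all telogen arrays, as for 0.716% of all tested genes, and no member had them all above (0 of 78, against 0.79%). The mean was 5.22 ± 0.30 in anagen (SD, n = 5) and 6.53 ± 0.33 in telogen (SD, n = 15), and the gene fell by 1.31 on the log2 scale (SE 0.20, limma adjusted p = 0.00113). Within conditions the difference was -1.47 in aged mice, -0.59 on HFD for 3 months, -1.82 on ND for 3 months, -1.14 on HFD for 4 days and -1.51 on ND for 4 days. Among the 78 genes it was the only one below 0 in all 5 conditions (1.28%, against 9.67% of all tested genes). On HFD for 3 months the median of the 78 differences was 0.30, and in the other conditions it lay between -0.51 and -0.29. The anagen array on HFD for 3 months lay on a different slide from its telogen arrays, as did that on HFD for 4 days.

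A fall of this size was seen with 1 of 3 probes, and the others fell by less. The probe that represents Rps24 was designed on the transcript NM_011297, and others on the transcript variants NM_207634 and NM_207635. Rps24 is known to give several mRNAs by splicing of its last exons, and which exons each probe covers was not analysed here. The NM_207634 probe had 5.13 ± 0.38 in anagen (SD, n = 5) and 5.41 ± 0.31 in telogen (SD, n = 15), a difference of -0.28 ± 0.20. The NM_207635 probe had 5.87 ± 0.27 in anagen and 6.26 ± 0.26 in telogen, a difference of -0.39 ± 0.18. In a limma fit over 43395 probes their adjusted p-values were 0.42 and 0.24, against 0.00214 for the NM_011297 probe. With either of them in place of the NM_011297 probe, 0 of the 78 genes passed, and with probes averaged per gene Rps24 differed by -0.66 (adjusted p = 0.0463).

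The difference between probes on the same array does not depend on the scaling of that array. NM_011297 minus NM_207634 was 0.09 in anagen (range -0.17 to 0.50) and 1.11 in telogen (range 0.76 to 1.42), a shift of -1.02. NM_011297 minus NM_207635 was -0.65 in anagen and 0.26 in telogen, a shift of -0.91. For each, an exact two-sided permutation test that moved the anagen label within the conditions gave p = 0.000977, the smallest that its 1024 arrangements allow. NM_207634 minus NM_207635 shifted by 0.11 (exact permutation p = 0.0186). These tests were chosen after the values of the probes were seen. Among the 43 genes with several probes, the gap between probes in the anagen difference was 1.02 for Rps24, 0.51 for Rpl30, 0.41 for Rpl3 and 0.06 for the median gene.

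**Figure D4:**
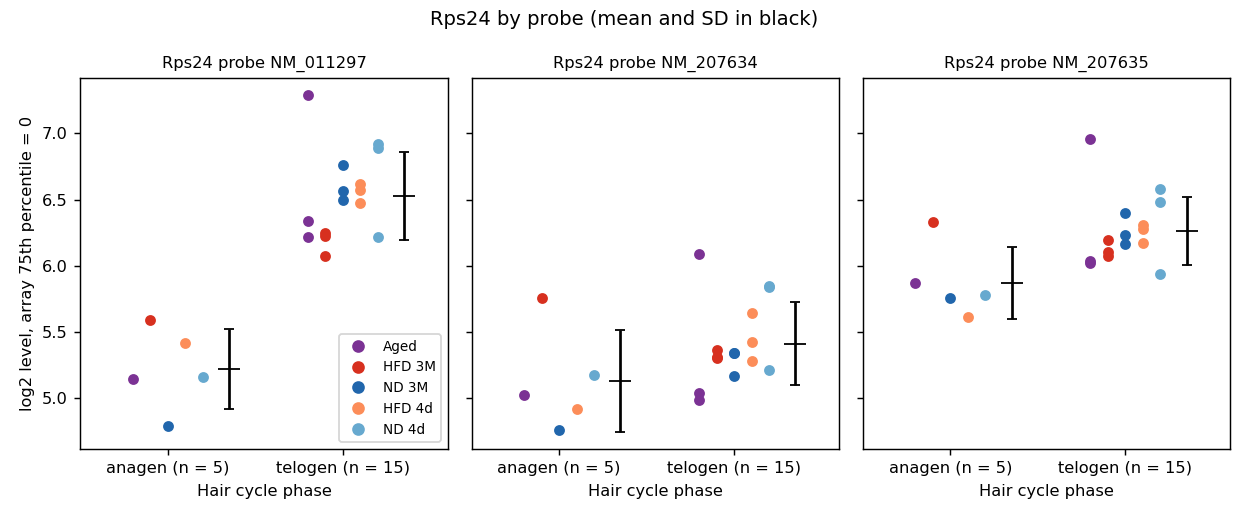
Log2 level of Rps24 on each array by its 3 probes (panels), in anagen (left) and telogen (right), coloured by condition, with mean and SD in black. With the NM_011297 probe all 5 anagen arrays lie below all 15 telogen arrays, and with the other probes the phases overlap.

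Rps4l was the gene with the highest fitted difference, and in the opposite direction. It had 2.40 in aged mice, 3.00 on HFD for 3 months, 2.57 on ND for 3 months, 2.74 on HFD for 4 days and 2.56 on ND for 4 days in anagen. In telogen it ranged from 1.23 to 2.78 with a median of 1.84. The phases overlapped, and the difference of 0.75 ± 0.23 had an adjusted p of 0.065 in limma. It was above 0 in all 5 conditions, between 0.42 and 1.08, as were 1732 of all 18727 tested genes. It passed with scaling by the array median (0.96), with array weights (0.80), with a trended and robust variance (0.75), and without ND 3 months telogen 1 or Aged telogen 3 (0.82 each). With quantile normalization or with the slide as a block it did not pass, as 0 of the 78 genes were called higher there. The X-linked coding gene Rps4x differed by -0.32 ± 0.17.

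Next by p were Rps21, the large subunit gene Rpl21, Rps19 and Rps14, none past the adjusted threshold. Rps21, whose start carries the tract CCTCCT, had 5.98 in aged mice, 6.19 on HFD for 3 months, 5.67 on ND for 3 months, 5.79 on HFD for 4 days and 5.67 on ND for 4 days in anagen. In telogen it ranged from 5.95 to 6.97, and the difference was -0.41 ± 0.17 (adjusted p = 0.17). Rps19, whose product is needed to mature the small subunit RNA, had 4.83 ± 0.26 in anagen (SD, n = 5) and 5.19 ± 0.23 in telogen (SD, n = 15), a difference of -0.36 ± 0.17 (adjusted p = 0.21). The window shown for Rps19, 1 of 3 for that gene, held no tract. Rps14, whose human counterpart lies in the region lost in the 5q- syndrome, had 5.87 ± 0.34 in anagen and 6.38 ± 0.42 in telogen, a difference of -0.51 ± 0.24 (adjusted p = 0.22). In the large subunit Rpl21 had 5.12 ± 0.42 in anagen and 5.67 ± 0.40 in telogen, a difference of -0.55 ± 0.23 (adjusted p = 0.18). In these 4 genes the phases overlapped and the array on HFD for 3 months was the highest in anagen.

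Members with other named roles differed by -0.34 to 0.06, none past the threshold. The stalk genes differed by -0.16 ± 0.18 (Rplp0), -0.03 ± 0.19 (Rplp1) and -0.27 ± 0.19 (Rplp2). The partners of the 5S RNA particle differed by -0.30 ± 0.19 (Rpl5) and -0.24 ± 0.17 (Rpl11). Rpl38, whose loss in mice alters the pattern of the axial skeleton, differed by -0.34 ± 0.18, and Rpl10, which completes the large subunit, by -0.31 ± 0.18. Rps6 differed by -0.08 ± 0.18, and Rps27a, made as a fusion with ubiquitin, by -0.21 ± 0.17. Rps27l, a paralog of Rps27 known as a target of p53, differed by 0.06 ± 0.18 and was 1 of the 4 genes above 0.

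Other genes of the translation machinery were counted from lists chosen with earlier results of these data known. In anagen, 37 of 48 genes of ribosome biogenesis were above 0, with a median of 0.45, against 7423 of all 18727 tested genes above 0. Of the 48, 1 was called higher and 1 lower, where 2.81% of all genes were called higher and 3.31% lower. Mybbp1a, a nucleolar protein that binds Myb, rose by 0.85 ± 0.24 (adjusted p = 0.0453), and Nob1, the nuclease that trims the small subunit RNA, fell by 0.99 on the log2 scale (SE 0.23, adjusted p = 0.0169). Of the mitochondrial ribosomal proteins 57 of 78 were above 0, with a median of 0.31, with Mrps18b rising by 0.87 ± 0.25 (adjusted p = 0.0468). Mrpl35, at -7.11 ± 0.57 in anagen (SD, n = 5) and -2.98 ± 1.94 in telogen (SD, n = 15), was called lower (limma adjusted p = 0.00161). Its anagen mean lay within the range of Rpl3l (-7.54 to -5.68), which was well above background on 0 arrays. Of the initiation factors 37 of 55 were above 0, with a median of 0.26, with Eif2s1 rising by 0.94 ± 0.17 (adjusted p = 0.00407) and Eif4a2 falling by 0.91 on the log2 scale (SE 0.15, adjusted p = 0.00196). RNA polymerase I (7 of 11 above 0, median 0.16) and mTORC1 and Myc (13 of 21 above 0, median 0.15) had 0 genes called by limma, with 3 and 7 below an unadjusted p of 0.05, against 4281 of all genes.

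The medians of lists closer to the ribosome were nearer to that of the 78 genes. The elongation factors and other TOP mRNAs had 5 of 17 above 0 and a median of -0.06, and the ribosome components outside the naming rule had 2 of 8 above 0 and a median of -0.17, with 0 genes called by limma in either and 3 and 0 below an unadjusted p of 0.05. Among these, Fau differed by -0.30 ± 0.18, Rack1 by -0.15 ± 0.19 and Rpsa by 0.06 ± 0.16. With quantile normalization the medians were 0.03 for these components, 0.08 for elongation and other TOP mRNAs and 0.42 for biogenesis, against -0.03 for the 78 genes. With scaling by the array median they were 0.04, 0.15 and 0.66, against -0.06. Under each of these scalings the median of the 78 genes was below those of the other lists, which was not tested. In the telogen comparisons 0 genes of these lists passed limma's adjusted p, with 5 to 15 of their 238 entries below an unadjusted p of 0.05, against 701 to 2235 of all 18727 genes.

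**Figure D5:**
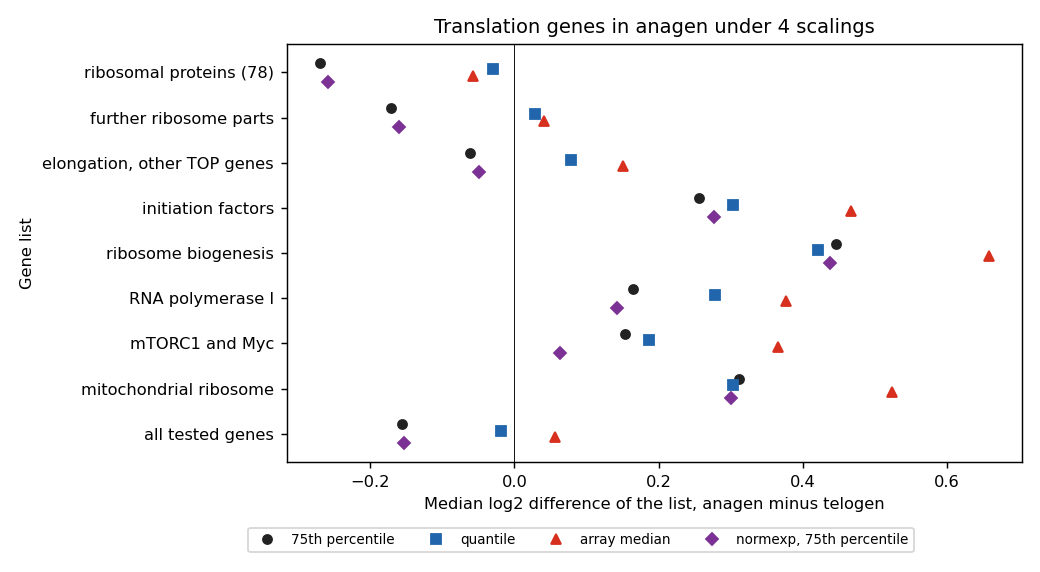
Median log2 difference, anagen minus telogen, of 8 lists of translation genes and of all tested genes (rows) under 4 ways of scaling (symbols). The 78 ribosomal protein genes lie between -0.27 and -0.03, and ribosome biogenesis between 0.42 and 0.66.

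Markers of other cells moved with the phase in part. The summed level of 6 fibroblast markers lay between -0.01 and 1.28 on the anagen arrays and between 1.19 and 3.31 on the telogen arrays, with 2 of the 6 well above background on all arrays. That sum followed Col1a2 (mean 0.38 in anagen and 2.28 in telogen), while Dcn was at -4.13 in anagen and -6.57 in telogen, well above background on 3 anagen and 0 telogen arrays, and Col3a1 at -3.19 in anagen and -3.49 in telogen. The 5 T cell markers with a probe summed to 1.61 to 3.31 in anagen and -0.48 to 2.76 in telogen. Thy1 had a higher mean in anagen (2.04) than in telogen, and Cd3d, Cd3e, Cd3g and Cd2 a lower mean, such as -4.53 in anagen and -3.24 in telogen for Cd3g. Endothelial markers summed to -3.19 to -0.08 in anagen and -3.19 to -2.06 in telogen, with Cdh5 and Kdr well above background on 0 arrays. The summed stem cell markers lay between 8.30 and 8.79 in anagen and 8.32 and 9.27 in telogen, while Cd34 averaged 3.16 in anagen and 5.35 in telogen. Suprabasal markers summed to 6.75 to 7.38 in anagen and 6.09 to 7.48 in telogen. Among these, Krt1 (4.90, against 3.64 in telogen), Ivl (1.74 against 0.27), Krt10 (5.33 against 4.76) and Lor (4.60 against 3.81) had higher means in anagen, and Sbsn a lower one (5.42 against 5.67). The part of these in the differences of the ribosomal protein genes was not tested.

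With 1 anagen array per condition, diet and age have no replicates in anagen, and differences there are between single arrays. In each difference below the arrays lay on different slides, so that diet or age and slide cannot be told apart. The HFD 3 months array was above the ND 3 months array for 78 of 78 genes, with a median of 0.55 and a range of 0.12 to 1.22. The median over all tested genes was 0.44, and the median of the 78 genes was 0.11 after quantile normalization. HFD minus ND for 4 days had a median of 0.04, with 51 of 78 genes above 0, against -0.09 for all tested genes. The aged array minus the ND 3 months array had a median of 0.15, with 61 of 78 above 0, against a higher median of 0.26 for all genes. The aged array minus the ND 4 days array had a median of 0.24, with 71 of 78 above 0, against -0.06 for all genes.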

How the data were processed

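The authors' deposited scanner files hold Cy3 intensity values per spot, made with Agilent Feature Extraction 10.7.1.1 per the submitters' processing notes. The deposited series table holds a signal per probe that matched the processed intensity divided by the 75th percentile of the array (within 0.00663 on the log2 scale for the 78 genes, after an array constant). Spots of a probe were averaged after outlier spots (62 to 159 per array) and controls were left out, log2 was taken, and the log2 of the 75th percentile over probes was subtracted. Of 56605 probes, 32994 matched 1 RefSeq symbol by accession and 23611 none. A probe was tested if well above background on all 3 arrays of a telogen group or on at least 3 anagen arrays (43395 probes), and the brightest represented its gene (18727 genes). For the ribosomal protein genes all 20 arrays were required.

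Comparisons used limma 3.58.1 in R 4.3.3, two-sided, in a fit of 15 telogen arrays with 5 groups and a fit of 20 arrays with condition and phase, adjusted by Benjamini-Hochberg over every gene tested, with 0.05 as the threshold. Rps26 lacked 1 value, an outlier spot on ND 3 months telogen 1, so its fit used the other arrays. On simulated data the fit of aged minus ND for 3 months recovered 0% of 2-fold changes and 32% of 4-fold changes. For anagen minus telogen the fit recovered 29% of 2-fold and 66% of 4-fold changes. Replicate numbers did not pair the arrays: deviations of arrays with the same number had r between -0.139 and 0.059. Alternatives changed the background correction, scaling, filters, probes, variance model, blocks and arrays. Named genes were those of set roles, the 3 with the smallest p per direction and comparison, and the 5 largest and 5 smallest SDs. Some genes that this rule names are not reported here. The genes, lists and rules were chosen with earlier results of these data known. Other tools were Python 3.11.15, pandas 2.3.3, numpy 2.4.6 and data.table at 1.17.8.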

Additional observations from a re-analysis of the deposited data

Results flagged for a closer look

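In anagen the array on HFD for 3 months stood apart from the other 4 arrays for 5 genes, by the size of the gap to the nearest array relative to the range. Its level was 7.01 for Rpl39, 7.16 for Rps10, 5.29 for Rps19, 5.95 for Rps27a and 4.27 for Rps27l. In 42 groups tested, 5 were flagged, where chance flags about 1 in 20 and where the genes share the array and so are not independent. For Rpl13, all 3 HFD arrays lay below the ND mean after 3 months (-0.41) and all 3 above it after 4 days (0.12), a difference of -0.53 between the diet effects. The ND mean after 4 days (5.79) includes ND 4 days telogen 1 at 4.95, while the other ND arrays, at 6.14 and 6.28, lay above all 3 HFD arrays (6.05, 5.83 and 5.86). Tested in limma, the difference had an unadjusted p of 0.36.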

How the results depend on the processing

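The 78 genes were refitted under 37 other settings. Of 186 counts of ribosomal protein genes called, 179 were within 1.5 times the main count, and of 186 medians 180 moved by less than the spread between telogen arrays of a group (0.33), although 18 changed sign. In every telogen comparison the count was 0 under all settings. The spread of 0.33 exceeds the size of every main median, of which the largest was -0.27 in anagen. A median could thus vanish or change sign and still be among the 180. In aged minus ND for 3 months the median was -0.64 with the slide as a block and -0.37 without Aged telogen 3 and ND 4 days telogen 1, a pair chosen after seeing the data (range -0.37 to 0.15 leaving out single arrays). In aged minus ND for 4 days it was -0.54 without that pair (range -0.31 to 0.22), and in ND for 3 months minus ND for 4 days it was 0.69 with the slide as a block. Since each telogen group lay on 1 slide, that block is estimated from anagen. In anagen, 2 genes (Rps24 and Rps4l) were called with scaling by the array median, with a trended and robust variance and with array weights, and 1 to 2 when single arrays were left out. The count was 0 with Rps24 read by its NM_207635 or NM_207634 probe, settings added after the data were seen. Rps24, by its NM_011297 probe, was called under 32 of 32 alternatives that kept this probe or averaged the probes, at -1.60 to -0.66 (adjusted p 0.000113 to 0.0463). With a replicate block the medians were -0.16 (HFD minus ND, 3 months) and -0.03 (aged minus ND for 3 months), with 0 of 78 genes called.

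Over all genes, 1145 were called in anagen, against 1908 with array weights, 677 with the slide block, 317 in conditions with both phases on 1 slide, and 555 to 2055 leaving out single arrays. In aged minus ND for 3 months 12 were called, against 0 to 24 across settings, in aged minus ND for 4 days 7, against 0 to 12, and in ND for 3 months minus ND for 4 days 3, against 0 to 7. Diet called 0, against at most 2. Scaling by the array median moved the split of anagen calls to 653 higher and 336 lower, against 2.81% of all genes higher and 3.31% lower with the 75th percentile, 621 and 602 with quantile normalization and 207 and 470 with the slide block. Ribosomal protein genes have many processed pseudogenes whose transcripts could bind the same probes, and 3 arrays per group limit small differences.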
